A study of Mus musculus with 165 samples.

Results

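The comparison described here is the last step of a neutrophil differentiation time course in cultured mouse cells: GCSF-treated PUER cells after 152h, 160h and 168h of 4-hydroxytamoxifen (OHT) were set against the same cells after 80h, 88h, 96h, 104h, 112h, 120h and 128h. PUER cells are an IL3-dependent myeloid progenitor line from mice lacking Spi1 (labelled bone marrow-derived, while the study's text gives both bone marrow and fetal liver), the gene for the transcription factor PU.1, and all groups used here carry a fusion of PU.1 with the hormone-binding part of the estrogen receptor, which OHT activates. For the neutrophil arm, GCSF-OHT, IL3 was replaced by GCSF at 10 ng/mL 48h before 100 nM OHT was added at 0h. The IL3-OHT arm, used here only as a contrast over the same hours, was kept in 5 ng/mL IL3 and received 200 nM OHT. The members were chosen by hour alone: 27 libraries, 16.4% of the series, with 19 in the early window (80h to 128h) and 8 in the late window (152h to 168h), while the 6 libraries at 136h and 144h lie between the windows. Each window mean weighted its time points equally, 7 early and 3 late. A time point had 3 libraries, or 2 at 96h, 112h and 152h.

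Neutrophils acquire their contents in a fixed order. Primary granule proteins such as myeloperoxidase and the serine proteases are made by dividing promyelocytes, secondary granule proteins such as lactoferrin and cathelicidin by myelocytes and metamyelocytes, and tertiary granule proteins such as gelatinase last. Receptors for chemoattractants and the exit from division come late in this order, so an interval late in GCSF culture is a window on the end of granule gene expression and the onset of receptor expression.

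The 27 libraries held 14600246 to 33147945 reads on genes (median 21418904), with 15210 to 16128 genes with a read. A count of 3 reads corresponds to 2.01 to 4.64 normalized counts, and values at or below that floor are at the limit of detection. The share of reads in the 10 most abundant genes was 8.49 to 10.8% early and 11.5 to 12.5% late. One library stood apart: replicate 3 at 104h differed from its 2 replicates by chi-square values per gene of 50.6 and 73.2, against 2.95 to 7.08 for the other 22 replicate pairs, and was the most deeply sequenced. Spi1 itself, whose count cannot separate the fusion from other PU.1 coding sequence, was 9339 ± 681 normalized counts early and 10116 ± 1184 late (log2 difference 0.11, not called). Here and below, ± is the SD over the 7 early or 3 late time-point means, and brackets give the lowest, median and highest library. Each time point came from its own plate, so plate and time point cannot be told apart.

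The label was checked against marker genes. All 12 neutrophil markers were detected in both windows, and their summed level was 480566 to 670168 normalized counts early and 543745 to 681770 late. S100a8 and S100a9 made up most of it, while Ly6g had a median of only 17.96 early and 28.4 late. Among the 12, Ltf, Camp and Cebpe were lower late and Mmp9 and Cxcr2 higher, as given below. The summed level of 9 monocyte and macrophage markers was higher late, at 4131 to 5358 against 2263 to 3521, and the 2 ranges did not overlap. Most of that sum was Cx3cr1. The macrophage markers C1qa, C1qb and C1qc were at 0 in all 8 late libraries, and Csf1r had a median of 25.01 early and 18.4 late. Adgre1, of the same class, was detected in both windows, with a median of 208.05 early and 296.41 late. Its ranges overlapped, at 147.89 to 477.68 early and 207.33 to 490.08 late. Eosinophil, basophil and mast cell markers summed to 115.96 to 186.15 early and 93.9 to 124 late, and markers of other lineages to 13.4 to 59.2 and 28.7 to 52.6. These sums were nearly all Mcpt8 and Klf1, respectively. The part that other cells had in the results below was not tested.

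Of 17414 genes tested, 529 rose (3.04%) and 556 fell (3.19%) from the early to the late window. A gene is said here to have risen or fallen where limma gave an adjusted p under 0.05 and a log2 difference beyond 0.58. By adjusted p alone 3337 genes were higher (19.2%) and 3854 lower (22.1%), and the median log2 difference of all genes was -0.007. All 8 late libraries lay above all 19 early ones for 276 genes (1.58%) and below for 289 (1.66%). The mean at 136h and 144h lay between the window means for 435 of the 529 and 463 of the 556. These are bulk RNA measurements, in which fewer cells of a type and less RNA per cell cannot be told apart. When the 10 time-point means were the units, so that differences between plates enter the error, 260 genes rose (1.49%) and 299 fell (1.72%). Removing replicate 3 at 104h gave 516 and 557. Of the genes described below as having risen or fallen, those without a call on time points were Lyz2, Ceacam10, Ccl3, Oas3, Ifit1, Mxd1, Hoxa9, Ly6a, Mmp12, Mrc1, F13a1, Bcl2a1a, Bcl2a1d, Slfn4, Lars2, Padi4, C3ar1, Fpr2, Fcgr4 and Irf7.

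**Figure D1:**
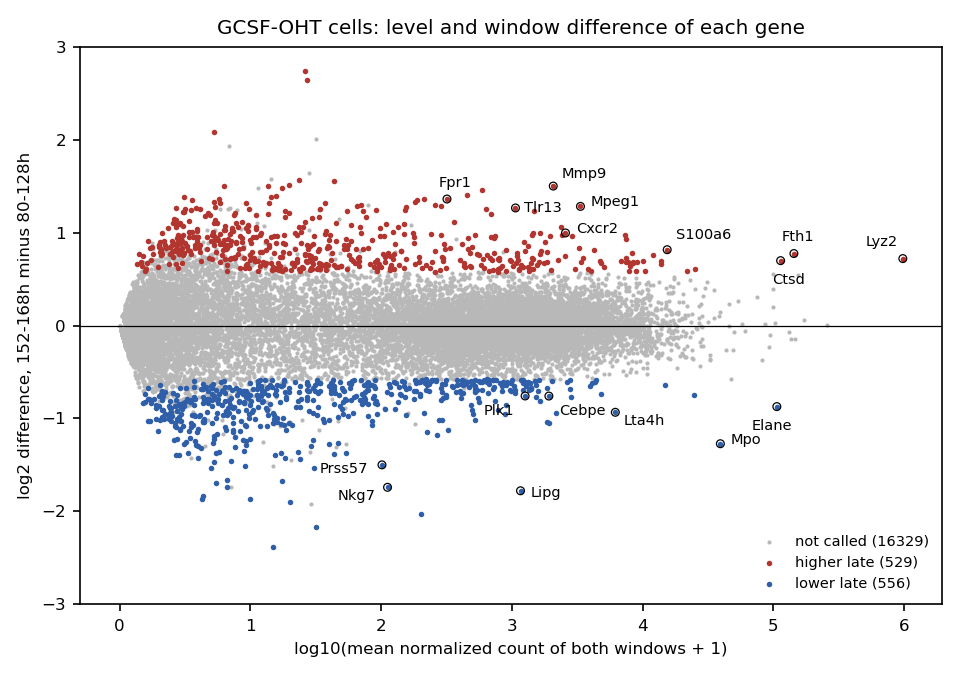
Each point is 1 of the 17414 genes tested, with the log10 of its mean normalized count over both windows plus 1 on the x axis and the log2 difference, late minus early, on the y axis; 2 genes lie outside the axes. The 529 genes that rose are red and the 556 that fell are blue, and among the circled examples Lyz2, Fth1 and Ctsd are abundant genes that rose while Elane and Mpo are abundant genes that fell.

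Transcripts of the primary granule list were lower late, while the secondary and tertiary list was split. All 10 primary granule genes were lower late by adjusted p alone, 5 of the 10 fell, and the list's median log2 difference was -0.66. In the secondary and tertiary granule list 5 of 23 genes rose and 5 fell, with a median of 0.03. By adjusted p alone 9 of them were higher and 7 lower. The 34 lists used here are described by counts and medians only.

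Mpo, which encodes the myeloperoxidase that makes hypochlorous acid in the phagosome (chr11:87793581-87804413, GRCm38), went from 55623 ± 10680 normalized counts early [34902, 54587, 82423] to 23116 ± 5565 late [15447, 23989, 30000]. The ranges did not overlap, and the early mean was 2.41 times the late mean (log2 difference -1.27, SE 0.05, adjusted p = 3.26e-42). Within the time course its highest mean, 70881, was at 80h. Prss57, a serine protease of the azurophil granule (chr10:79781474-79790961), fell from 149.8 ± 34.5 [107.7, 148, 211.5] to 51.3 ± 6.16 [40.4, 53.7, 56.7], a log2 difference of -1.50 (SE 0.23). Its highest mean was also at 80h and its lowest at 168h. Ms4a3, a membrane protein of granulocyte-monocyte progenitors, fell by 1.04 on the log2 scale and already differed by -0.88 between 80-96h and 112-128h. Elane, neutrophil elastase, fell from 137816 ± 18600 [113259, 142995, 165235] to 75157 ± 9847 [60187, 73044, 85805], without overlap. Ctsg, cathepsin G, fell by 0.75, and Prtn3, proteinase 3, had a log2 difference of -0.57, just short of the threshold, with no overlap between the windows.

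The promoters of all 34 lists were searched for 5 motifs. The PU.1 core is given here, PU.1 being the factor that OHT activates in these cells. Sequences are from RefSeq on GRCm38.p6, 5′ to 3′ along the gene's strand, and are the part of the 120 bases before the RefSeq start that lies outside the annotated gene. In the stretch before Elane, chr10:79886192-79886246 (plus strand), capitals mark GAGGAAGT, the PU.1 core:
Elane: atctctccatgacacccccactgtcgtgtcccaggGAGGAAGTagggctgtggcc
Over windows of 250 bases before to 50 after the start, searched on both strands, this core was in 4 of the 8 primary granule promoters in the table (Mpo, Elane, Prtn3 and Ctsc) and in 3.13% of the promoters of the 11654 tested genes that had one. The primary granule share was the highest of the lists searched, followed by 7 of 26 (26.9%) for Fc, paired and C-type lectin receptors. The core was in 23 of 328 promoters of genes that rose (7.01%) and in 10 of 386 of genes that fell (2.59%). A match is a description of these letters and not of binding.

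Among secondary and tertiary granule genes, Mmp9 showed the largest rise. Mmp9 encodes gelatinase B, the protease that names the tertiary granule (chr2:164940780-164955850), and went from 1077 ± 200.7 [688, 1101, 1518] to 3070 ± 698 [2290, 2931, 4193]. All late libraries were above all early ones, and the late mean was 2.85 times the early one (log2 difference 1.50, SE 0.10, adjusted p = 5.59e-26; 0.00821 with time points as units). The step came late: the mean was 1288 at 128h, 1237 at 136h, 2184 at 144h and 3742 at 160h. Part of the medium was renewed with fresh OHT at 88h and 136h, and the Mmp9 mean also went from 725 at 88h to 1240 at 96h. Against 104h to 120h alone, which match the late window in hours after renewal, the log2 difference was 1.41, and over all genes 392 rose and 396 fell. Slc11a1, a divalent metal transporter of the tertiary granule and phagosome, rose from 512 ± 127.5 to 975 ± 132 (log2 difference 0.96), and Ceacam10 by 0.63. Lyz2, lysozyme, rose from 742823 ± 90057 [605997, 736538, 930318] to 1216833 ± 35305 [1166197, 1206807, 1322409], a log2 difference of 0.72 that lost its call with time points as units (adjusted p = 0.297).

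Other members of this list fell, among them the secondary granule genes Ltf and Camp. Fcnb, a ficolin that recognises sugars on microbes, fell from 312 ± 88.5 [168.6, 287, 479] to 136.9 ± 19.7 [97.05, 140, 164.4] and did not overlap. Pglyrp1, which binds peptidoglycan, fell from 2855 ± 337 to 1504 ± 369 (log2 difference -0.94, SE 0.04). Ltf, lactoferrin, fell from 164.1 ± 22.3 [113, 162.6, 217] to 90.2 ± 31.6 [52.2, 91.6, 126.8], with overlapping ranges. Within the late window its mean was 119 at 152h and 56.5 at 168h. Camp, cathelicidin, fell by 0.65 and Itgb2l, an integrin chain, by 0.95. Other abundant members of the class did not pass: Ngp differed by -0.27, Lcn2 by 0.55, Mmp8 by 0.03, and the cytosolic S100a8 and S100a9 by 0.06 and 0.01. Lcn2, just short of the threshold, was 64606 to 101790 normalized counts early and 110005 to 130571 late, without overlap. S100a6, a calcium-binding protein, was the 1 of 16 S100 and annexin genes that rose, from 11223 ± 1726 to 19647 ± 2139 (log2 difference 0.82). None of the 8 NADPH oxidase subunits passed; by adjusted p alone 2 were higher and 1 lower.

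**Figure D2:**
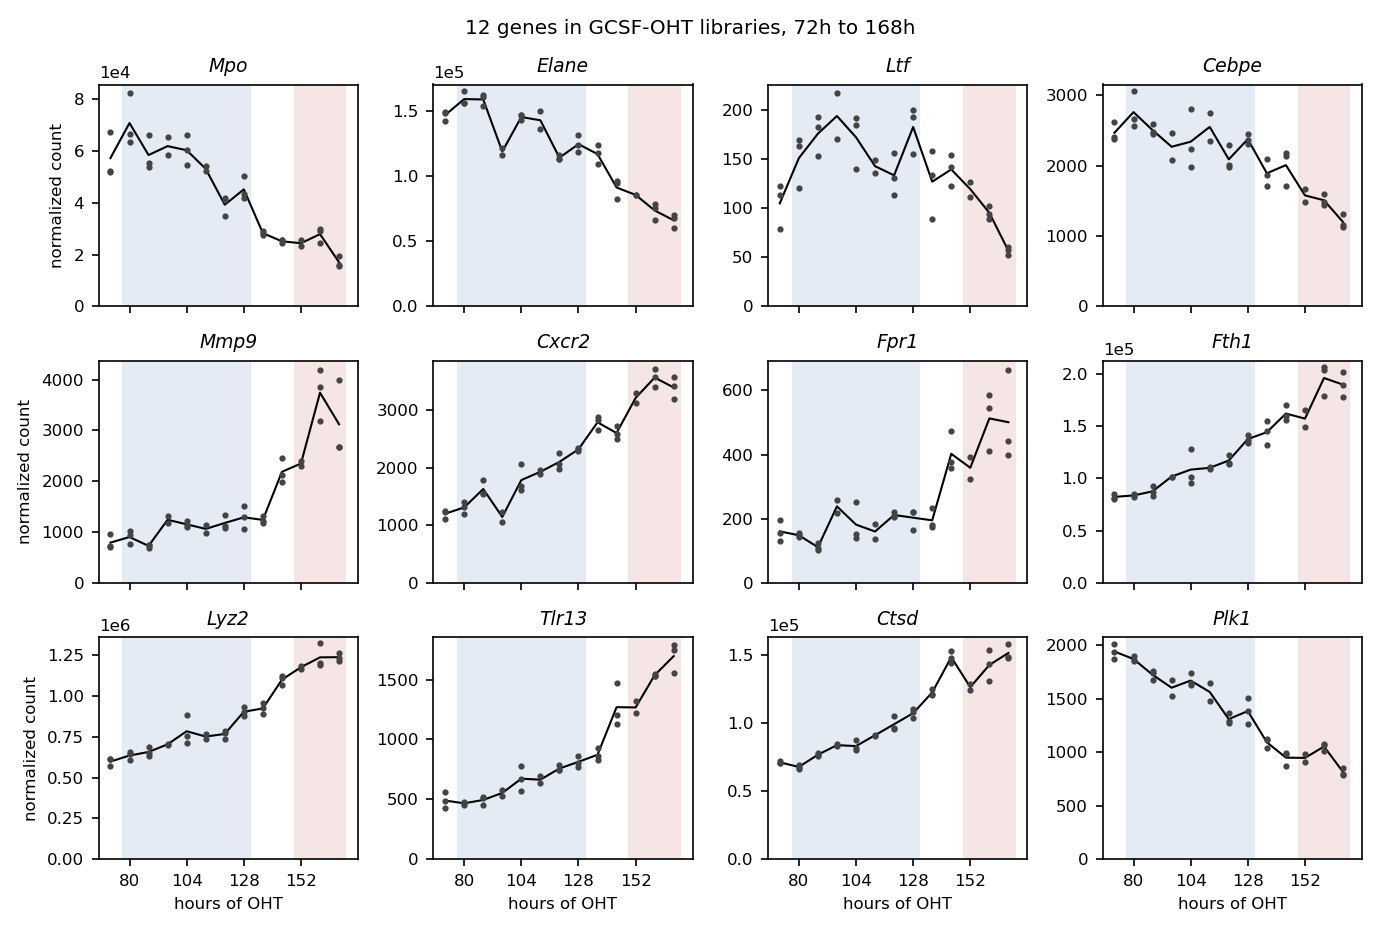
Normalized counts of 12 genes in GCSF-OHT libraries from 72h to 168h of OHT; points are libraries, lines join time-point means, each y axis is linear from 0, and shading marks the early (blue) and late (red) windows. Mpo, Elane, Cebpe and Plk1 are highest at 80h or near it, Cxcr2, Fth1, Lyz2, Tlr13 and Ctsd are highest at 160h or 168h, and Mmp9 and Fpr1 stay near their early level through 136h and are higher from 144h.

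Chemoattractant and adhesion receptors, which let neutrophils leave the marrow and find a site of infection, were higher late as a group. Of 24 tested, 11 rose and 1 fell, and 17 were higher and 3 lower by adjusted p alone; the median log2 difference was 0.56. With time points as units 9 rose and 1 fell. Cxcr2, the receptor for CXCL1 and CXCL2 (chr1:74153989-74161246), rose from 1748 ± 420 [1050, 1788, 2344] to 3396 ± 178 [3134, 3414, 3729], a log2 difference of 1.00 (SE 0.05, adjusted p = 8.13e-37). The windows did not overlap. Its neighbour Cxcr1 rose from 21.2 ± 6.80 to 51.8 ± 6.99 (log2 difference 1.32), with overlapping ranges. Fpr1, the receptor for bacterial formyl peptides (chr17:17876471-17883940), rose from 178.9 ± 42.98 [100.9, 165.3, 258] to 457 ± 85.7 [325, 425, 664], and all late libraries were above all early ones. The Fpr1 mean was 194.6 at 136h and 402 at 144h. Around the earlier renewal of OHT it went from 110.8 at 88h to 238 at 96h. Its log2 difference was 1.36, or 1.302 at matched hours after renewal. Itgax, the integrin chain CD11c, rose by 1.24. Ptafr and C5ar1, the receptors for platelet-activating factor and complement C5a, rose by 0.70 and 0.60, and Ccr2 and Cx3cr1 by 0.71 and 0.68. Fpr2 rose by 0.71 and C3ar1 by 0.82, the latter from a mean of 2.64 to 4.60, at the floor. The exception was Ltb4r1, the high-affinity receptor for leukotriene B4, which fell from 395 ± 47.5 to 235 ± 59.8 (log2 difference -0.77) without overlap. Lta4h, whose enzyme makes leukotriene B4, fell as well, from 8137 ± 1266 [6362, 8526, 10120] to 4242 ± 614 [3579, 4232, 4909] (log2 difference -0.93, SE 0.02, adjusted p = 7.77e-68), and was the 1 of 13 eicosanoid synthesis genes called. Cxcr4, which holds neutrophils in the marrow, differed by -0.20, Itgam by 0.56 and Itgb2 by 0.39, none of them called. Of 20 cytokine receptors none was called, while 11 were higher and 3 lower by adjusted p alone; the GCSF receptor Csf3r differed by 0.07.

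Some activating and inhibitory receptors of the cell surface rose too. In the list of Fc, paired and C-type lectin receptors 8 of 31 rose and none fell, the median was 0.30, and 17 were higher and 4 lower by adjusted p alone. Cd300ld rose from 370 ± 70.0 [247, 382, 473] to 890 ± 164.9 [665, 853, 1230] and did not overlap (log2 difference 1.26, SE 0.09). Pirb, an inhibitory receptor for MHC class I, rose from 5168 ± 871 to 9761 ± 730 (0.93), and its activating relative Pira2 from 163.2 ± 34.4 to 319 ± 27.1 (0.99). Clec4d, a C-type lectin for fungal sugars, rose by 0.90 and Fcgr4, an activating Fc receptor, by 0.62. Lilrb4a rose from 10634 ± 2071 to 16947 ± 1743 (0.69). Outside the lists, Clec4a3 (1.28), Lilra6 (1.17), Sirpb1b (1.12) and Klra2 (1.46) rose without overlap. These families hold near-identical copies, so reads may have been split between paralogs and single members are uncertain.

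Sensors of microbes rose where they passed. Of 20 Toll-like receptor and adaptor genes 5 rose and none fell, with a median of 0.11 and with 10 higher and 2 lower by adjusted p alone. Tlr13, an endosomal sensor of bacterial ribosomal RNA (chrX:106143204-106160493), rose from 631 ± 131.5 [456, 635, 862] to 1501 ± 217 [1217, 1542, 1786], a log2 difference of 1.27 (SE 0.06, adjusted p = 4.29e-38). Its time-point means were 813 at 128h, 1270 at 144h and 1697 at 168h. Tlr7 and Tlr8, sensors of single-stranded RNA, rose by 0.78 and 0.65, Tlr2, for bacterial lipopeptides, by 0.80, and Ly96, the MD-2 partner of Tlr4, by 0.77. Tlr4 itself differed by 0.46 and Tlr9 by -0.11. Mpeg1, the pore-forming perforin-2, rose from 1954 ± 491 [1230, 1922, 3040] to 4745 ± 1206 [3390, 5066, 6738], without overlap. Ccl3 was the 1 of 18 inflammatory cytokine and chemokine genes that rose (0.64), and none of 13 NF-kB factors and inhibitors was called, with 6 higher and 2 lower by adjusted p alone.

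Some interferon-stimulated genes rose, and the list varied between time points. Of 29 genes 10 rose and none fell, 15 were higher and 2 lower by adjusted p alone, and the median was 0.30. With time points as units 4 rose. The promoters of Ifit1 and Oas3, genes for an RNA-binding antiviral protein and for an oligoadenylate synthetase that activates RNase L, show the interferon response element core GAAANNGAA in capitals, or its reverse complement, where matches overlap as 1 run, at chr19:34640769-34640870 (plus strand) and chr5:120777662-120777779 (minus strand):
Ifit1: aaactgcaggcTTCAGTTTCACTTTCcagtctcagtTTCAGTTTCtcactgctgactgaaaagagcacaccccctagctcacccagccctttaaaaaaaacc
Oas3: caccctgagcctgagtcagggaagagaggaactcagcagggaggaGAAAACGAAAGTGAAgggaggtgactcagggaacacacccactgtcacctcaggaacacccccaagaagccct
The core was in 14 of 22 promoters of the list (63.6%) and in 7.45% of those of all tested genes. It was in 45 of 328 promoters of genes that rose (13.7%) and in 35 of 386 of genes that fell (9.07%). Ifit1 went from 87.5 ± 35.1 [34.3, 77.1, 211.01] to 214.6 ± 100.1 [84.3, 235, 364] and Oas3 from 13.5 ± 11.4 to 31.7 ± 10.4, both with overlapping ranges. The replicate wells of a time point also spread: Ifit1 was 204.6 ± 117.5 (SD, n = 3) at 144h. Irf7, a factor that amplifies the response, rose by 0.70 and Gbp2, a guanylate-binding protein, by 0.99. The list median, set against the early mean, was 0.51 at 128h, 0.14 at 136h, 0.59 at 144h, 0.03 at 152h, 0.67 at 160h and 0.66 at 168h, so the value at 152h lay close to the early mean. Slfn1 (1.41) and Slfn4 (0.61), members of an interferon-inducible family outside the list, also rose.

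**Figure D3:**
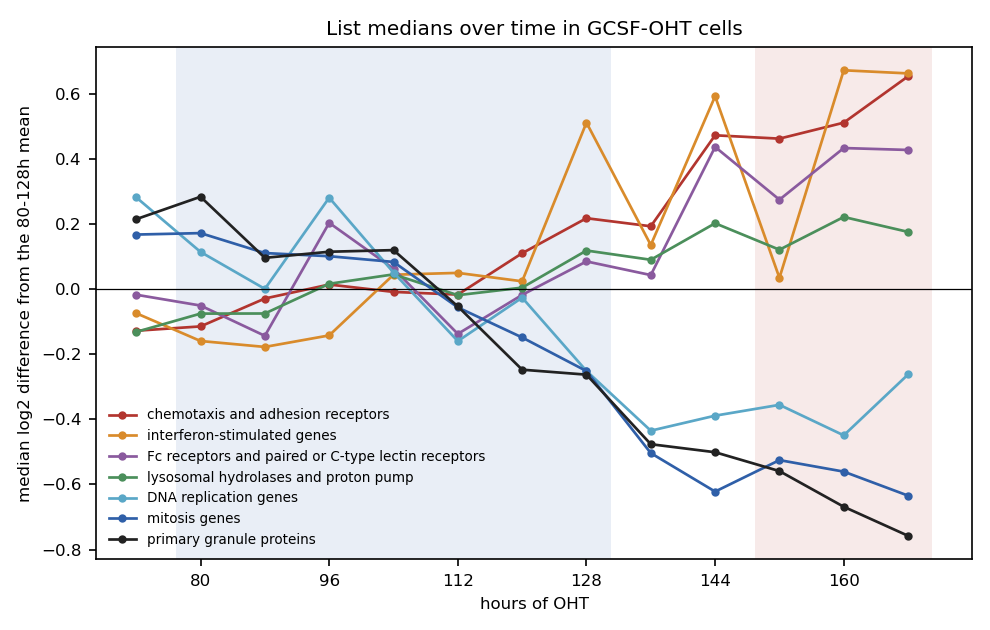
Lines give, for 7 gene lists, the median over genes of the log2 difference between a time point and the mean of 80h to 128h (y axis) against hours of OHT (x axis); shading marks the windows. Primary granule and mitosis medians reach -0.76 and -0.63 at 168h, the chemotaxis median reaches 0.65, and the interferon-stimulated median moves up and down between neighbouring time points.

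Genes of the lysosome and of iron storage included abundant transcripts that rose. Of 39 lysosomal genes 4 rose, and 27 were higher and 4 lower by adjusted p alone, with a median of 0.16. Ctsd, the aspartic protease cathepsin D, rose from 87125 ± 13422 [66072, 84701, 110431] to 140478 ± 12750 [124490, 145910, 158775], and its ranges did not overlap. Lgmn, the asparaginyl endopeptidase legumain, rose from 54.6 ± 14.1 to 127.4 ± 9.86 (log2 difference 1.24), Ctsh by 0.63 and Ctsb by 0.59. Fth1, the ferritin heavy chain, rose from 106583 ± 18270 [82103, 101733, 141755] to 181057 ± 20880 [148895, 184116, 206281], without overlap. Fbxl5, which targets iron regulatory protein for degradation when iron is plentiful, rose by 0.69, while Alas1, the first enzyme of heme synthesis, fell from 18221 ± 2720 to 11564 ± 850 (log2 difference -0.64). Among BCL2 family and death genes 3 of 27 rose: Bmf, a pro-apoptotic BH3-only gene, from 353 ± 70.6 to 684 ± 54.3 (0.97), and the anti-apoptotic Bcl2a1a and Bcl2a1d, near-identical copies with late means of 11.5 and 2.61. Bcl2a1d was at the floor and lost its call under 13 alternatives, both pseudocounts and edgeR among them. Xdh, xanthine dehydrogenase, rose by 0.70 and Selenop, a selenium transport protein, by 0.58. Cd53, a leukocyte tetraspanin, rose from 892 ± 172.3 [626, 922, 1143] to 2068 ± 266 [1768, 2101, 2482] (1.23).

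Genes of division were lower late. All 40 mitosis genes were lower by adjusted p alone, 19 of them fell, the median was -0.57, and in 28 all late libraries were below all early ones. With time points as units 19 fell as well. Of 40 DNA replication genes 38 were lower by adjusted p alone and 1, Mcm10, fell, with a median of -0.37. The Cdc20 promoter is shown because its window carries the cell cycle homology region, CHR, that mitosis genes share; the stretch is chr4:118437353-118437463 (minus strand) and capitals mark TTTGAA:
Cdc20: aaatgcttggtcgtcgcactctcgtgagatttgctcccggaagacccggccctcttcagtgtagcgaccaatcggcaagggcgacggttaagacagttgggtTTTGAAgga
TTTGAA or its reverse complement was in 23 of 34 mitosis promoters (67.6%) and in 12.8% of those of tested genes. Over all lists and genes, it was in 66 of 328 promoters of genes that rose (20.1%) and in 77 of 386 of genes that fell (19.9%). Cdc20, the activator of the anaphase-promoting complex, fell from 1970 ± 272 [1576, 1986, 2491] to 1198 ± 111.4 [1060, 1205, 1342], with no overlap. Plk1, a mitotic kinase (chr7:122159439-122169873), fell from 1588 ± 194 [1260, 1643, 1900] to 937 ± 119 [790, 946, 1079] (log2 difference -0.76, SE 0.04, adjusted p = 2.50e-34). Its time-point means were 1870 at 80h, 1384 at 128h, 1092 at 136h and 814 at 168h. Ccnb2 fell by 0.71, Nek2 by 0.72 and Hjurp, the chaperone that loads the centromere histone, by 0.61. The transcripts were still present late: Mki67 was 8839 ± 159.5 normalized counts and Top2a 6609 ± 261. Of 26 G1 genes 2 rose and none fell, while 13 were lower by adjusted p alone. The 2 were Ccnd1, whose late mean was 9.93, and E2f2, from 3981 ± 533 [3194, 3887, 5080] to 6161 ± 712 [5264, 6414, 6878] (0.63), without overlap.

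Growth and metabolic lists shifted less. Of 77 cytosolic ribosomal protein genes none was called, while 49 were lower and 2 higher by adjusted p alone, with a median of -0.12. Ribosome biogenesis (median -0.18, 28 of 40 lower by adjusted p alone), nuclear respiratory chain (-0.13, 36 of 50) and cholesterol genes (-0.16, 18 of 24) had no calls either. Some of these medians moved up and down between time points. Set against the early mean, ribosome biogenesis was 0.36 at 96h, -0.36 at 128h and 0.05 at 168h. Cholesterol genes were 0.35 at 128h and -0.47 at 168h. Slc16a3, a lactate exporter, was the 1 of 23 glycolysis genes that fell (-0.59). Shmt2, the mitochondrial serine hydroxymethyltransferase, fell from 1934 ± 345 to 1115 ± 47.1 (-0.77), and Cth, of cysteine synthesis, by 0.96. Lars2, the mitochondrial leucyl-tRNA synthetase, rose from 11134 ± 3443 [4013, 11173, 16969] to 16771 ± 1378 [13531, 16928, 21048], with wide overlap. It had no call without replicate 3 or without 120h, whose libraries carry another name series in the labels.

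Of 47 myeloid transcription factor genes 3 rose and 3 fell. Cebpe, the C/EBP factor needed for secondary granules (chr14:54710360-54712174), fell from 2413 ± 216.2 [1974, 2452, 3058] to 1428 ± 202 [1135, 1462, 1672], with no overlap (log2 difference -0.76, SE 0.05). Gfi1, a repressor of monocyte genes, fell from 4985 ± 703 to 3205 ± 32.2 (-0.62), again without overlap. Irf8, a factor of monocyte fate, fell by 0.73 from a mean of 6.13 to 3.42, at the floor. Klf2, a quiescence-associated factor, rose from 1092 ± 237 to 1777 ± 126.1 (0.73). Mxd1, a MAX partner that opposes MYC, rose from 7229 ± 2138 to 10485 ± 503 (0.59). It already differed by 0.79 between 80-96h and 112-128h, and its highest mean was at 136h. Id3 rose by 0.86 at late values of 0 to 5.22, near the floor. Mxd1 and Id3 each lost the call under 7 alternatives. Cebpa differed by -0.22, Cebpb by 0.28 and Cebpd by 0.00, none of them called. Among 15 progenitor genes Hoxa9, with means of 2.73 and 0.60, and Ly6a fell. Of 21 monocyte and macrophage genes 5 rose, among them Cd68, a lysosomal glycoprotein (917 ± 189.2 to 1588 ± 221), and Mmp12 at a late mean of 11.1; F13a1 fell by 0.59 and Mrc1 by 0.71. Mrc1 was at the floor and lost its call under 9 alternatives, edgeR and DESeq2 among them, and F13a1 under 5. The mast cell and basophil genes Hdc and Ms4a2 fell by 0.62 and 0.88.

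Among all genes, the largest fall among genes with at least 50 counts and no overlap was that of Lipg, endothelial lipase: 1801 ± 456 [1275, 1856, 2534] early and 528 ± 159.1 [331, 573, 661] late (log2 difference -1.78, SE 0.04, adjusted p = 1.47e-73). Nkg7, a granule membrane protein of cytotoxic lymphocytes, followed, from 172.6 ± 56.02 [83.8, 152.1, 278] to 49.4 ± 10.5 [33.97, 47.4, 63.4] (-1.74); it was the 1 of 8 erythroid, megakaryocyte and lymphoid markers that fell, while 2 were higher by adjusted p alone. Car4, a carbonic anhydrase, fell by 1.04, Cftr, the chloride channel, by 0.95, Psrc1, a spindle protein, by 1.02 and Pcx, pyruvate carboxylase, by 0.95. Epop (-1.17), Frat2 (-1.03), Reep6 (-0.98) and Adam15 (-0.98) also fell without overlap, and Csn2, which encodes beta-casein, fell from 6031 ± 1141 to 3574 ± 345. Sycp2, a synaptonemal complex gene, rose from 119 ± 28.4 to 303 ± 51.4 (1.37), Vmn1r43 by 1.33 and Wfdc17, a secreted small protein, by 1.27.

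**Figure D4:**
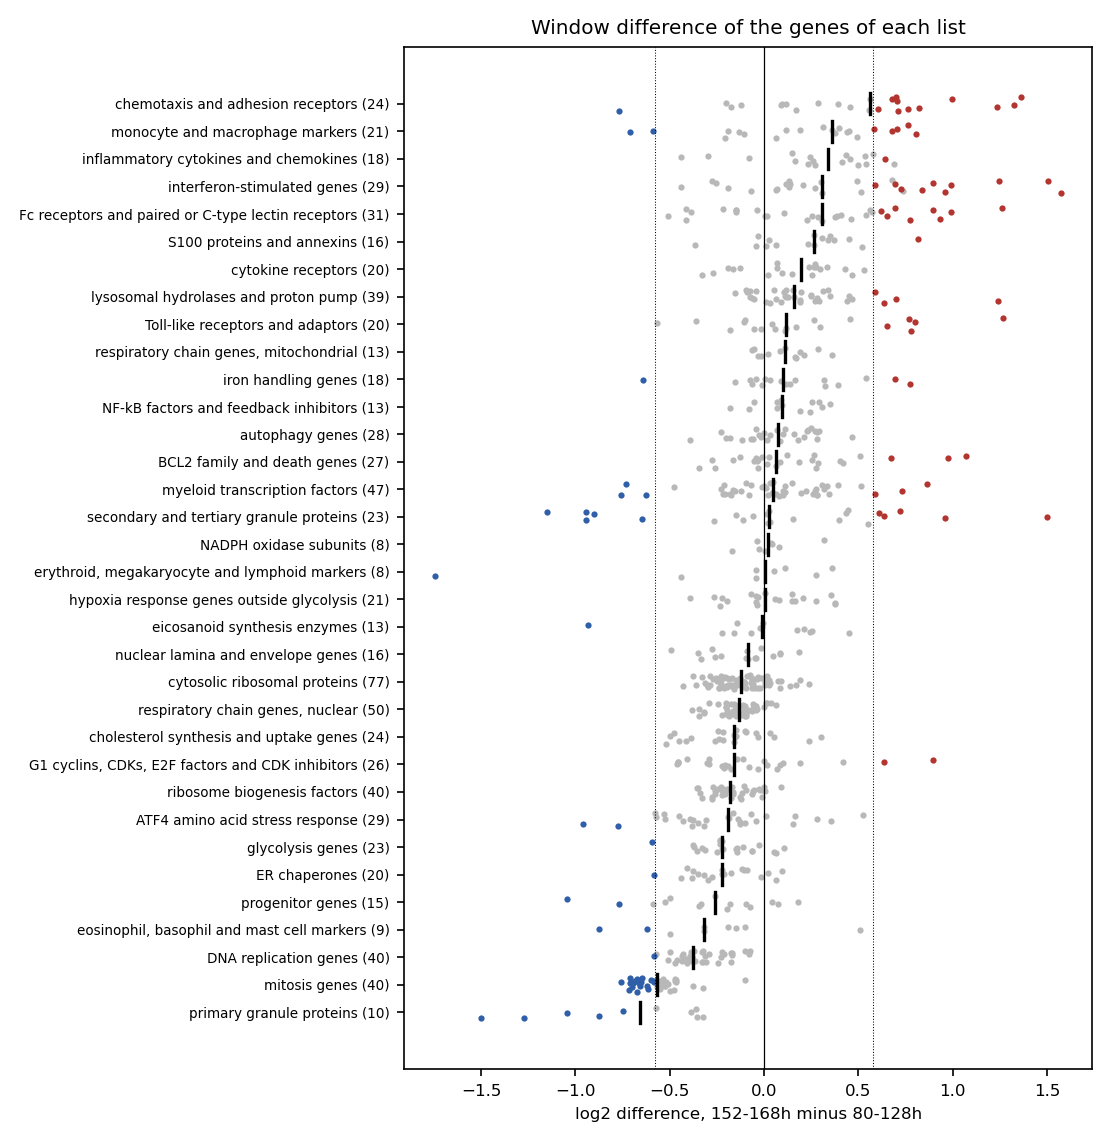
Each point is a gene of 1 of the 34 lists (number tested in parentheses) at its log2 difference, late minus early; red genes rose, blue genes fell, black bars are list medians, and dotted lines mark the threshold of 0.58. Chemotaxis and adhesion receptors have the highest median (0.56) and primary granule proteins the lowest (-0.66), and all 40 mitosis genes lie left of 0.

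Some of these changes were already under way within the early window. Between 80-96h and 112-128h 243 genes, 1.40% of those tested, were higher and 1.14% lower. Values for that earlier step, log2, were 1.34 for Padi4, 0.83 for Klra2, 0.65 for Cxcr2 and 0.56 for Tlr13. They were 0.32 for Mmp9 and 0.26 for Fpr1. For genes that fell they were -0.88 for Nkg7, -0.48 for Mpo, -0.29 for Plk1, -0.10 for Cebpe and -0.09 for Itgb2l. The 2 steps share libraries and were not tested against each other.

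To ask which late changes were particular to GCSF, the same hours were compared in IL3-OHT cells, which differentiate toward macrophages. The 96h libraries were left out there and, for the test of the difference, in both arms. In IL3-OHT 486 genes rose (2.79%) and 488 fell (2.80%). Of the 529 genes that rose in GCSF-OHT, 89 also rose in IL3-OHT, 16.8% of the GCSF and 18.3% of the IL3 list; those that fell in both were 31.8% of the GCSF and 36.3% of the IL3 list. The difference between arms was itself called for 241 genes higher in GCSF (1.38%) and 276 lower (1.58%), counted over all genes tested. Only a minority of the genes that rose in GCSF-OHT, and of those that fell, had this difference called in the same direction. A call in GCSF-OHT alone therefore does not show a difference between arms.

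The genes whose late change was more positive in GCSF included terminal neutrophil genes. Mmp9 changed by 1.50 in GCSF-OHT and by -0.22 in IL3-OHT, a difference of 1.76 (SE 0.14, adjusted p = 6.82e-20). Cxcr2 changed by 1.00 and -0.21 (difference 1.11, SE 0.07). Padi4, the enzyme that citrullinates histones in neutrophil extracellular traps, went from 114.04 ± 60.6 to 260 ± 9.92 in GCSF-OHT, was -0.35 in IL3-OHT and differed by 1.63 (SE 0.21). E2f2 rose by 0.63 in GCSF-OHT and was -0.58 in IL3-OHT (difference 1.21, SE 0.06), and Sycp2 differed by 1.41. Fads2, a fatty acid desaturase, was -0.34 in GCSF-OHT and -1.58 in IL3-OHT. In the other direction, Ltf was -0.90 in GCSF-OHT and 0.18 in IL3-OHT (difference -1.04, SE 0.22, adjusted p = 9.05e-05). Prss57 differed by -0.87 and Itgb2l by -0.92, both close to the threshold (adjusted p = 0.0413 and 0.0270). Dnase1 was -0.08 in GCSF-OHT and 0.89 in IL3-OHT.

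Other granule and division genes fell in IL3-OHT too, by a larger amount for some. Mpo fell by 2.08 in IL3-OHT against 1.27 in GCSF-OHT (difference 0.83, SE 0.08), and Elane by 1.38 against 0.87 (0.47, SE 0.05). Fcnb was -1.15 in both (difference -0.04, SE 0.11) and Gfi1 -0.58 against -0.62 (-0.02, SE 0.04). Plk1 was -0.83 and Cdc20 -0.82 in IL3-OHT, and the mitosis median was -0.63 with 27 of 40 genes called lower. Tlr7 was 0.80 in IL3-OHT and 0.78 in GCSF-OHT (-0.01, SE 0.08).

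**Figure D5:**
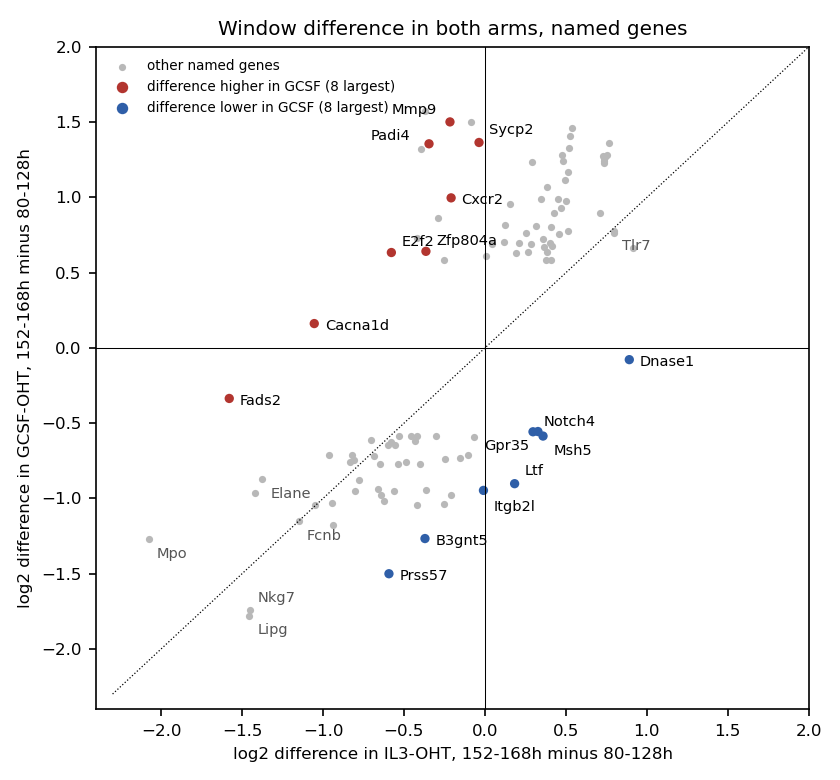
The log2 difference between windows of each named gene in IL3-OHT (x axis, without 96h) and GCSF-OHT (y axis); the dotted diagonal is equal change, and red and blue points are the 8 genes in each direction with the largest called difference between arms among genes with a mean of at least 50, 96h being left out of both arms. Mmp9, Cxcr2 and Padi4 lie well above the diagonal with IL3 values below 0, Ltf and Dnase1 lie below it, and Mpo and Elane lie above it with a larger fall in IL3-OHT.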

How the data were processed

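Bulk polyA RNA-seq of GCSF-OHT and IL3-OHT libraries was analysed. Part of the medium was renewed with fresh OHT at 40h, 88h and 136h. The deposited values were produced by the authors with Salmon on GRCm38 and are a signal in normalized counts, that is, estimated counts divided by DESeq2 size factors (tool versions not given in the sources used here); whole reads could be recovered for 100% of values, within 0.01. Every value column had a sample. Genes with at least 5 normalized counts in a library (17414 of 36255) were tested as log2(value + 1) with limma 3.58.1 (R 4.3.3) over 159 libraries in 54 groups, with contrasts of equally weighted time-point means and Benjamini-Hochberg adjustment. The IL3-OHT libraries at 96h and 144h were not used. Log2 differences therefore understate changes of low genes. Replicates are wells of 1 plate, so p-values measure the spread between wells. Recovered reads were tested with edgeR 4.0.16 and DESeq2 1.42.0 as alternatives, and the fit was tested on simulated data. The simulated libraries held no spread between plates or drift within a window, so they cannot show how such spread affects the calls. Coordinates are from GENCODE vM21 and promoters from RefSeq. The floors cover counting error only.

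The comparison and its gene lists were chosen with earlier results of these data known. The named genes are, per list, up to 4 called genes in each direction; the 15 largest differences in each direction without overlap and with a mean of at least 50; the 10 largest rises and falls in level; and the 8 largest called differences between arms in each direction with a mean of at least 50, predicted genes passed over in the last 3 rules. Other list members named beside these were chosen after their values were seen, as defining members of their lists. Some genes that these rules name are not reported here.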

Additional observations from a re-analysis of the deposited data

Results flagged for a closer look

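In 7 of the 109 named genes, 1 of the 8 late libraries lay far from the rest by Dixon's test, which chance alone does in about 1 group in 20. The lowest late values were 887.8 normalized counts for Ccl3 (152h replicate 1), 665.7 for F13a1 and 3025 for Ncapd2 (both 168h replicate 3), 38.37 for Slc16a3 (168h replicate 1) and 33.9 for Pcx (168h replicate 2). The highest were 20677 for Ctsg (152h replicate 2) and 76.15 for Dnase1 (168h replicate 3). Leaving out a replicate number or a late time point turned the direction of none of the 104 named genes called in GCSF-OHT, which do not include Dnase1.

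Of the genes whose difference between the arms was called, 16 are given, the 8 largest in each direction with a mean of at least 50 counts. The difference, GCSF-OHT minus IL3-OHT on the log2 scale, was 1.757 for Mmp9, 1.631 for Padi4, 1.406 for Sycp2, 1.269 for Cacna1d, 1.206 for E2f2, 1.158 for Zfp804a, 1.147 for Fads2 and 1.111 for Cxcr2. It was -1.044 for both Ltf and Notch4, -1.037 for Gpr35, -0.9819 for Msh5, -0.9615 for Dnase1, -0.9174 for Itgb2l, -0.8747 for Prss57 and -0.8696 for B3gnt5. Cacna1d, which encodes a voltage-gated calcium channel, was not called in GCSF-OHT (0.16, SE 0.24) and its difference rested on a fall of 1.05 in IL3-OHT. The calls of Cacna1d, Itgb2l and Prss57 were lost when certain replicates were left out. OHT was 100 nM in GCSF-OHT and 200 nM in IL3-OHT, so dose and cytokine cannot be told apart.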

How the results depend on the processing

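None of the 104 named genes called in GCSF-OHT reversed its direction under the alternatives that tested it, and the median of all genes moved by at most 0.0068. The 529 genes that rose became 309 with a pseudocount of 5, 346 with a mean of at least 10 required and 260 with time-point means as units; the 556 that fell became 314 with a pseudocount of 5, 299 with time-point means and 360 without 80h and 88h. The 276 calls that were lower in GCSF than IL3 shrank to 61.2% of that number with a pseudocount of 5 and 65.6% with a mean of at least 10. Leaving out 1 replicate number at a time gave 412 to 491 that rose, 479 to 522 that fell, and 81.7 to 88.4% of the 241 calls higher and 62.7 to 76.8% of the 276 lower in GCSF; without replicate 3 at 104h alone these were 99.2% and 104%. The cause of these changes was not tested. DESeq2 called 519 and 486 and edgeR 539 and 506, in place of 529 and 556; 450 and 454 genes were shared with DESeq2. The replicate block gave 532 and 556, and 244 and 274 between arms; same-numbered libraries of different groups did not deviate together (median r 0.0206), so the numbers were not used as pairs. Of those 104 genes, 23 lost the call without 80h and 88h, 20 against 104h to 120h alone, 18 with time-point means and 17 without 168h. The alternative without replicate 3 at 104h was chosen after seeing the data. Depth limits the genes at or below 2.01 to 4.64 normalized counts.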
